A study of Mus musculus with 2 samples.

Results

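The regions described here are stretches of mouse autosomes in which no accessible site was called in urinary bladder. Chromosomes 1 to 19 of the mm10 build were divided into fixed windows of 250 kb from the first base, and 337 of 9840 windows were left out because over 10% of their bases were N. Of the 9503 windows kept, 630 overlapped no peak of the longer deposited peak list in either library, which is 6.63% of them and 157.5 Mb of 2375.75 Mb. The absence of peaks is therefore the rule by which the windows were chosen and is not a result. Accessibility was measured by DNase-seq, in which DNase I cuts chromatin where the DNA is exposed and sites dense in cuts are called as peaks. Both libraries come from bladder tissue of adult female B6CASTF1/J mice, the F1 offspring of C57BL/6 and CAST parents, at 18 to 20 months of age. They are labelled biological replicates 1 and 2 under 1 strain donor, with no treatment and no second group. Nothing says whether they came from 1 animal or more, so differences between them may be technical. Cells of this cross carry a CAST genome beside the C57BL/6 genome on which mm10 is based, and how reads of the CAST genome were placed is not given in the sources used here.

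Mammalian chromosomes alternate between gene-dense stretches rich in G and C and gene-poor stretches rich in A and T, the latter often replicated late and held at the nuclear lamina. Promoters with many CpG dinucleotides are usually accessible in most tissues, whereas promoters poor in CpG tend to open only in the cells that use the gene. Genes for olfactory and vomeronasal receptors lie in large clusters and are known mainly for their activity in sensory neurons of the nose. The bladder wall consists mainly of urothelium, smooth muscle and connective tissue.

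The sequences below show 3 kinds of DNA found in these windows, with every CpG in capitals and the rest in lower case. The second kind, a gene start rich in CpG, is rare there. The first 3 lie at the RefSeq starts of genes of tandem families, an olfactory receptor gene, a bitter taste receptor gene and the gene of the hormone prolactin. Each runs from 250 bases before to 50 bases after that start on GRCm38.p6 (chr2:88224981-88225280 on the minus strand, chr6:132867758-132868057 on the plus strand and chr13:27057320-27057619 on the plus strand). The RefSeq start of Olfr1170 lies inside the gene, 3304 bases from the GENCODE start used below. In Olfr1170 and Tas2r110 the bases from the RefSeq start onward begin with atg, the letters of a start codon. The stretches shown for Olfr1170 and Tas2r110 may thus be sequence before a coding part and not promoters.
Olfr1170: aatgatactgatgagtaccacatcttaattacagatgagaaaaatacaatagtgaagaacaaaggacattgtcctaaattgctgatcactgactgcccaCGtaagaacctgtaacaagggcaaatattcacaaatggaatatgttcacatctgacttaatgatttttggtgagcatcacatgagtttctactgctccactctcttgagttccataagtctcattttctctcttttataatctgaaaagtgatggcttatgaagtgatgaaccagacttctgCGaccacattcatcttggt
Tas2r110: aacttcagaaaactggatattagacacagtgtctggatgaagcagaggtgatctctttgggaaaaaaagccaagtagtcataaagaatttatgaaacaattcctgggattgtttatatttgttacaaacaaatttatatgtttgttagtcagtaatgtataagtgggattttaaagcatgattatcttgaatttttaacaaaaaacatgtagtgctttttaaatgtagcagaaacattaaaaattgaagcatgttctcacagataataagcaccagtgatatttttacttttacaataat
Prl: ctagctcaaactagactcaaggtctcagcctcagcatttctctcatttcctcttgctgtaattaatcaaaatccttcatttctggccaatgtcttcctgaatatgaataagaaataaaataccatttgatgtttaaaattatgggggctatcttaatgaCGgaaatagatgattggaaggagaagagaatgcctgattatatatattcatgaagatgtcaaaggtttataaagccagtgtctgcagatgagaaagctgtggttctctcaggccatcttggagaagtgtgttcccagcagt
The next 2 are promoters of the same length that are rich in CpG and yet lie in windows without peaks, those of Nrg3 (chr14:39473039-39473338) and Mdga2 (chr12:67222500-67222799), both on the minus strand.
Nrg3: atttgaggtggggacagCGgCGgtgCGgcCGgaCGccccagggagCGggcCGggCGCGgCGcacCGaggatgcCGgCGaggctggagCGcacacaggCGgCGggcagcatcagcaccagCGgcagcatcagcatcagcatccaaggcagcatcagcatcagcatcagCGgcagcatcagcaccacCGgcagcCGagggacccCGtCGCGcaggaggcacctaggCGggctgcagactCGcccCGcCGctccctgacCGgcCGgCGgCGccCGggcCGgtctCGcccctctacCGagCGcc
Mdga2: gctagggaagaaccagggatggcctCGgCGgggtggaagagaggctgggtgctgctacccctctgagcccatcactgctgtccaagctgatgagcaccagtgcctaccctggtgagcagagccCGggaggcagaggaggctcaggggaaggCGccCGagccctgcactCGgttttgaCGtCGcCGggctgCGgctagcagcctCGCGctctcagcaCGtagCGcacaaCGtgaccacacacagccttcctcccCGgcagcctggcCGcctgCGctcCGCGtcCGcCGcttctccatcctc
The last 2 are the middle 200 bases of long runs of windows without peaks, a run with no protein-coding gene on chromosome 13 (chr13:87124901-87125100 of mm10, plus strand, in no annotated gene) and a run inside the gene Lrp1b on chromosome 2 (chr2:41249901-41250100 of mm10, plus strand, in an intron).
Run on chromosome 13: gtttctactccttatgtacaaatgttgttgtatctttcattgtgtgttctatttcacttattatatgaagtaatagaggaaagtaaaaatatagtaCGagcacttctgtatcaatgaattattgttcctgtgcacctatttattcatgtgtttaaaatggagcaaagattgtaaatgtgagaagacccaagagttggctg
Run in Lrp1b: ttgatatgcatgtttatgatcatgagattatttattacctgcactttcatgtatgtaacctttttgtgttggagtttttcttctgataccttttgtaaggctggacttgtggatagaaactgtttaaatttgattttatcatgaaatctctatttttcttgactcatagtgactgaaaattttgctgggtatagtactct
Counted over these stretches, Olfr1170 held 2 CpG, Tas2r110 held 0, Prl held 1, Nrg3 held 36 and Mdga2 held 22, and GC content was 37% in Olfr1170, 28.7% in Tas2r110, 38% in Prl, 74.3% in Nrg3 and 67.7% in Mdga2. The run on chromosome 13 held 1 CpG at 32% GC, and the run in Lrp1b held 0 at 31% GC.

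The libraries shared part of their empty windows. Replicate 1 had 82472 autosomal peaks and left 1405 windows empty, 14.8% of those kept. Replicate 2 had 109240 peaks and left 893 windows empty, 9.4%. Of the windows empty in replicate 1, 44.8% were empty in replicate 2 as well, against 3.25% of the windows with a peak in replicate 1. In the other direction, 70.5% of the windows empty in replicate 2 were empty in replicate 1, against 9.001% of those with a peak in replicate 2. No test was made, since with 1 group of 2 libraries the windows are not replicates.

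Windows that were empty in 1 library only were mostly separated from the 630 by a single weak peak. Of the 775 windows empty in replicate 1 only, 434 held exactly 1 peak of replicate 2, and these peaks had a median deposited signal of 0.239, against 0.769 over all autosomal peaks of that library. Of the 263 windows empty in replicate 2 only, 214 held exactly 1 peak of replicate 1, with a median signal of 0.247 against 0.827. Only 7 of the 434 and 1 of the 214 lone peaks were above the median of their own library. These 648 windows with 1 peak lie just outside the rule, and their median GC content was 37.7% against 37.4% in the 630 windows just inside it.

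Below the level of a called peak, the 630 windows were not blank. No deposited footprint, a short protected stretch within an accessible site, lay in any of them in either library. The deposited stretches of cut rate with a false discovery rate (FDR) under 0.05 were present in 160 windows in replicate 1 and in 232 in replicate 2. In all they covered 3624 and 5015 bases, or 0.0147% and 0.0155% of all such autosomal bases, while the 630 windows are 6.63% of the windows. Footprints and stretches come from the same libraries as the peaks that chose the windows. Their scarcity therefore follows at least in part from the rule and is not a separate result. No window held more than 83 such bases in replicate 1 or 86 in replicate 2, and the lowest FDR was 0.0149 and 0.0126. Stretches occurred in 331 windows in either library and in 61 windows in both.

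**Figure D1:**
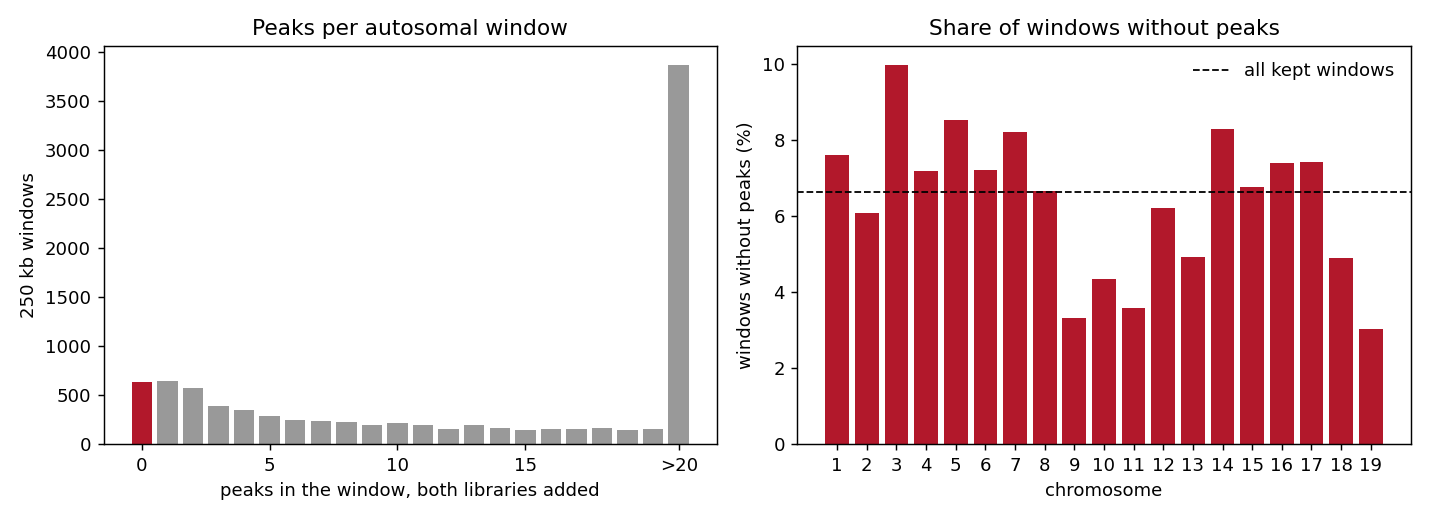
The left plot counts 250 kb windows by the number of peaks they overlap, with the longer lists of both libraries added, and the red bar is the 630 windows without peaks. The right plot gives the share of kept windows without peaks on each autosome, from 3.03% on chromosome 19 to 9.98% on chromosome 3, with a dashed line at 6.63% for all kept windows.

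Every autosome held such windows, but not in proportion to its length. Chromosome 3 had 62 of 621, or 9.98%, and chromosome 5 had 50 of 586, or 8.53%. At the other end chromosome 19 had 7 of 231, or 3.03%, chromosome 9 had 16 of 481, or 3.33%, and chromosome 11 had 17 of 474, or 3.59%. Chromosome 3 also had the lowest median GC content over its kept windows, 40.03%, and chromosome 11 the highest, 43.8%. The other chromosomes did not all follow this order. Chromosomes 5 and 19, far apart in their shares, both had 42.2% GC, and chromosome 7 had 42.8% GC with 8.23% of windows without peaks. When each chromosome was cut into 4 equal parts from its first base, which in mouse is the centromere end, 7.91%, 7.51%, 7.38% and 3.81% of windows lacked peaks in turn. The last of these, towards the far telomere, thus had the lowest share.

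Windows without peaks were poor in G and C. Their median GC content was 37.4%, with quartiles of 36.6% and 38.4%, against 41.9% in the 8873 other windows, with quartiles of 39.3% and 44.7%. Of the 630, 616 were below the median of the other windows. When only 1 library decided which windows were empty, the difference in medians was -4.61 percentage points for replicate 1 and -4.57 for replicate 2, against -4.46 for both, so the choice of library moved it far less than its own size. CpG dinucleotides are the site of DNA methylation and are rarer in mammalian DNA than base content would give. The observed count over that expected from base content had a median of 0.142 in windows without peaks and 0.186 in the others, and 608 of the 630 were below the latter value. As a density, the medians were 5 CpG per kb and 8.28 CpG per kb. These contrasts also span a difference in gene content and were smaller at like content. Among windows in which no protein-coding gene starts, median GC content was 37.2% in 502 without peaks and 39.4% in 3170 others. The median CpG ratios there were 0.141 and 0.156.

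The shortage of CpG was also a shortage of CpG-rich patches. A tile of 500 bases with at least 55% GC and an observed over expected ratio of at least 0.65, the usual form of a CpG island, occurred in 82 of the 630 windows, or 13.0%, and in 59.6% of the others. Of 21706 such tiles in kept windows, 138 lay in windows without peaks. The mean number per window was 0.219 without peaks and 2.43 in the others. Among windows in which no protein-coding gene starts, these means were 0.139 and 0.235, so most of the contrast went with gene content. As a ratio of the 2 medians, CpG differed more than any other dinucleotide, though plain differences were of like size. The ratio of observed to expected AT steps had a median of 0.911 without peaks and 0.857 with them, that of TA steps 0.778 and 0.742, that of CC or GG steps 1.23 and 1.19, and that of AG or CT steps 1.16 and 1.22. The ratio for AA or TT steps was 1.07 in both sets.

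Short sequence patterns differed in density to unlike degrees, and counts expected from base content were not computed. Exact matches on both strands were counted per Mb in windows without peaks and in the others. The CTCF consensus, bound by the factor that anchors chromatin loops, gave 1.28 and 5.38 matches, and the letters GGGCGG bound by SP and KLF factors gave 44.1 and 125. The letters AGATAA, read by GATA factors, were denser without peaks, with 909 matches per Mb against 728. The letters TGANTCA, in which N is any base, gave 312 and 319. They take in the AP-1 site TGACTCA but also letters such as TGAATCA that are not that site. Matches to this loose pattern were almost as dense in windows where no site was called as elsewhere, whereas matches to the CTCF consensus were several times rarer. The density of the AP-1 site itself was not counted. Among windows in which no protein-coding gene starts, the contrasts for CTCF, GGGCGG and AGATAA were smaller. Mean matches per Mb there were 1.12 without peaks and 2.80 in the others for CTCF, and 41.0 and 63.9 for GGGCGG. For AGATAA they were 924 and 826, and for TGANTCA 317 and 329. At least 1 CTCF match was present in 26.03% of windows without peaks and in 63.2% of the others. All windows of both kinds held matches to each of the other 3 patterns, and none of the 4 patterns contains another. A match is a run of letters and not a bound site.

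**Figure D2:**
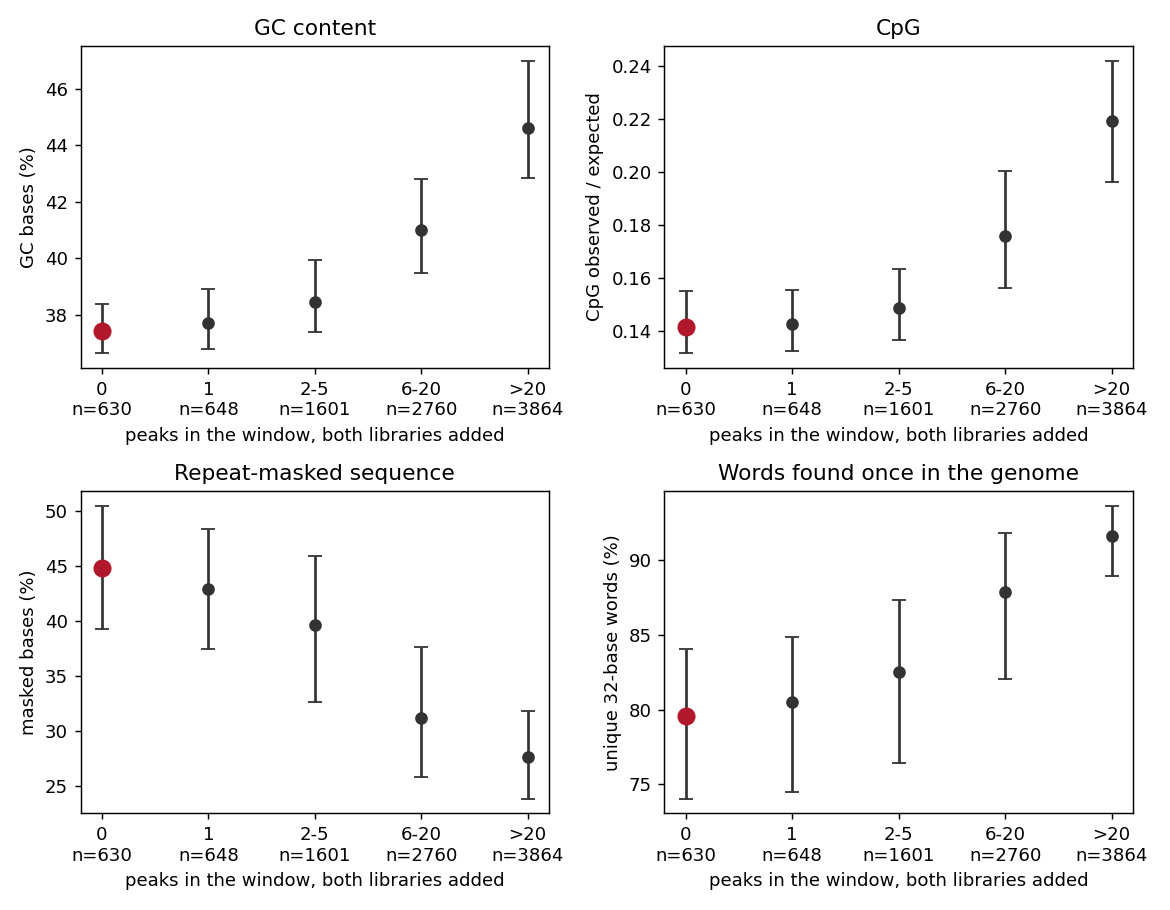
Median (points) and quartiles (bars) of GC content, CpG observed over expected, repeat-masked bases and unique 32-base words over kept 250 kb windows, grouped by the number of peaks of both libraries added, with n windows below each group and the windows without peaks in red. Median GC content is 37.4%, 37.7%, 38.5%, 41.0% and 44.6% from the fewest to the most peaks, so windows without peaks are the low end of a gradation.

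Repeats made up much of these windows. Bases masked as repeats in the reference had a median share of 44.8% without peaks and 31.01% in the others, and 596 of the 630 were above the latter value. This matters for the rule itself, because a read from a repeated sequence cannot be placed with certainty and a site there may go uncalled. The share of 32-base words that occur once in the genome was used as a gauge, and its median was 79.6% in windows without peaks and 88.9% in the others. Of the 630, 591 were below the latter value, and 444 had at least 75% unique words. Among kept windows with at least 75% unique words, those 444 are 5.25% of 8457, and the difference in median GC content was -5.16 percentage points. At the low end, 30 windows without peaks and 43 others had under 10% unique words. The part of read placement in the lack of peaks was not tested.

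The windows with the most extreme GC content show both sides of this. The lowest were chr15:48250001-48500000 at 34.7% GC, within the neuronal gene Csmd3, chr16:67250001-67500000 at 34.8%, within the synaptic adhesion gene Cadm2, and chr1:110750001-111000000 at 35.2%, where the cadherin gene Cdh19 starts. Their shares of unique words ranged from 84.2% to 88.9%. The highest were chr4:128250001-128500000 at 48.1%, chr4:42000001-42250000 at 47.7% and chr4:42500001-42750000 at 47.5%. The first of these lies within Csmd2, holds the start of Hmgb4 and had 92.4% unique words. The other 2 are part of a duplicated region with Ccl27b, a copy of a skin chemokine gene, and Il11ra2, a copy of an interleukin 11 receptor gene, and had 0.0648% and 1.18% unique words.

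Most of the windows held no start of a protein-coding gene. This was so in 502 of 630, or 79.7%, against 35.7% of the others, by the GENCODE M21 annotation. The sensory receptor families counted here are those of olfactory, vomeronasal, trace amine, bitter taste, formyl peptide and Mas-related receptors. In 62 windows a gene of these families started, and in 66 only other protein-coding genes did. Read from the side of the genome, 13.7% of the 3672 windows with no protein-coding start, 20.6% of the 301 windows with a sensory receptor start and 1.19% of the 5530 windows with other starts only lacked peaks. Windows of receptor genes thus lacked peaks more often than windows with no protein-coding gene start at all. That order turned round in windows with at least 75% unique words, where the shares were 12.4% of 3275 windows with no start, 8.53% of 129 with receptor starts and 0.534% of 5053 with other starts. In windows with 25% to 75% unique words they were 23.9% of 364, 26.5% of 151 and 6.11% of 393.

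Within classes of GC content, windows still differed by gene content, though these classes were not split by unique words. Between 36% and 37% GC, 32.1% of 542 windows with no protein-coding start lacked peaks, against 48.1% of 27 windows with receptor starts and 11.4% of 79 windows with other starts. Between 40% and 42% GC the shares were 2.57% of 623, 22.2% of 63 and 1.99% of 1057. Many of the receptor windows without peaks in this class lay on chromosome 7 with few unique words, such as chr7:20500001-20750000 with 0.509%. Among all windows with under 25% unique words, 52.4% of 21 with receptor starts lacked peaks. Gene content and repeated sequence are thus not told apart here. Above 42% GC no window with a receptor start lacked peaks, out of 32 between 42% and 44% and 29 above 44%.

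**Figure D3:**
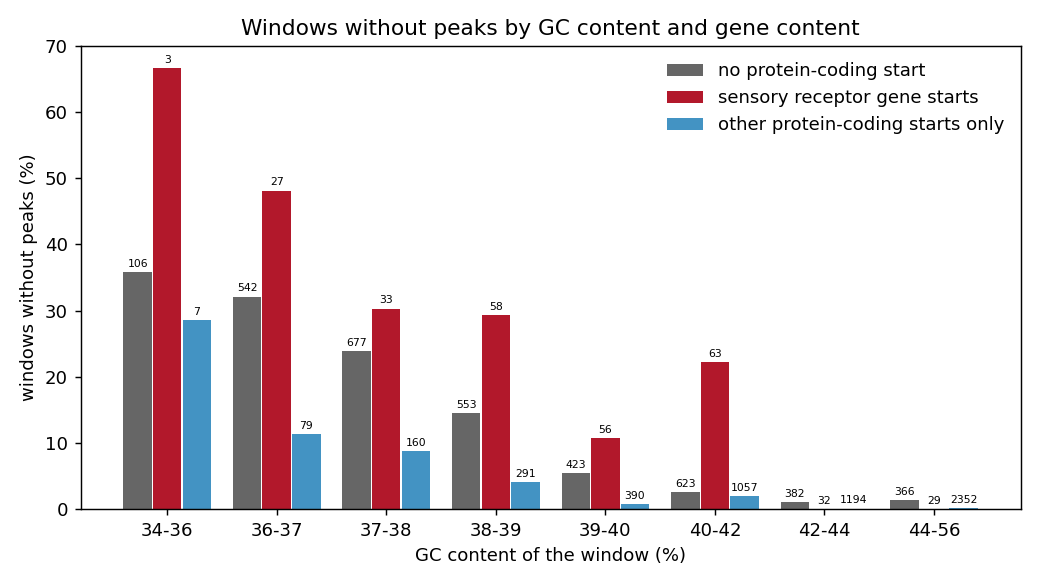
Share of kept 250 kb windows without peaks (y axis, %) by GC content of the window (x axis, %) and by what starts in it, with the number of windows above each bar. Among windows with no protein-coding start the share falls from 35.8% in the class of lowest GC content to 1.05% between 42% and 44% GC, and windows with other starts stay below these in every GC class.

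Of 20525 protein-coding genes that start in kept windows, 586 started in windows without peaks, which is 2.86%. Sensory receptor genes were 387 of these, or 66.0%, against 5.71% of the genes that start elsewhere. Olfactory receptor genes (Olfr), which serve the sense of smell, were the largest group with 277 of 1128, or 24.6%. Vomeronasal receptor genes, which serve pheromone sensing, followed with 55 of 203 in the Vmn1r family and 39 of 119 in the Vmn2r family. All 12 bitter taste receptor genes (Tas2r) of 35 that started in windows without peaks lay in 1 window, chr6:132750001-133000000, with 67.6% unique words. Trace amine receptor genes (Taar), also olfactory, had 0 of 15, Mas-related receptors of sensory neurons had 3 of 18 and formyl peptide receptors 1 of 7.

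Outside the receptors, several families of tandem copies with use in few tissues had shares above the 2.86% of all genes, some of them on small counts. In the prolactin family, hormones of the pituitary and placenta, 8 of 26 genes started in windows without peaks, with Prl itself in a pair of adjacent windows on chromosome 13 that held 6 of them. Androgen-binding secretoglobins, secreted by glands, had 5 of 29, keratin-associated proteins of the hair shaft 5 of 57 and cytochrome P450 enzymes 5 of 97. The 5 P450 genes were Cyp3a11 and Cyp3a44 on chromosome 5 and Cyp2c39, Cyp2c67 and Cyp2c68 on chromosome 19, of subfamilies that act mainly in the liver. Zinc finger genes named Zfp, a large group of transcription factors, stood below with 4 of 375, or 1.07%. Of the 45 families looked at, 27 had no gene that starts in these windows, among them keratins (0 of 53), potassium channels (0 of 90), cytosolic ribosomal proteins (0 of 74), clustered histones (0 of 67), collagens (0 of 42), Hox genes (0 of 39) and uroplakins (0 of 6), the last being surface proteins of the urothelium. With 2.86% of all genes starting there, a count of 0 in families of this size is near the overall share and says little. Keratins and clustered histones each started in only 9 windows, Hox genes in 8 and uroplakins in 5.

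**Figure D4:**
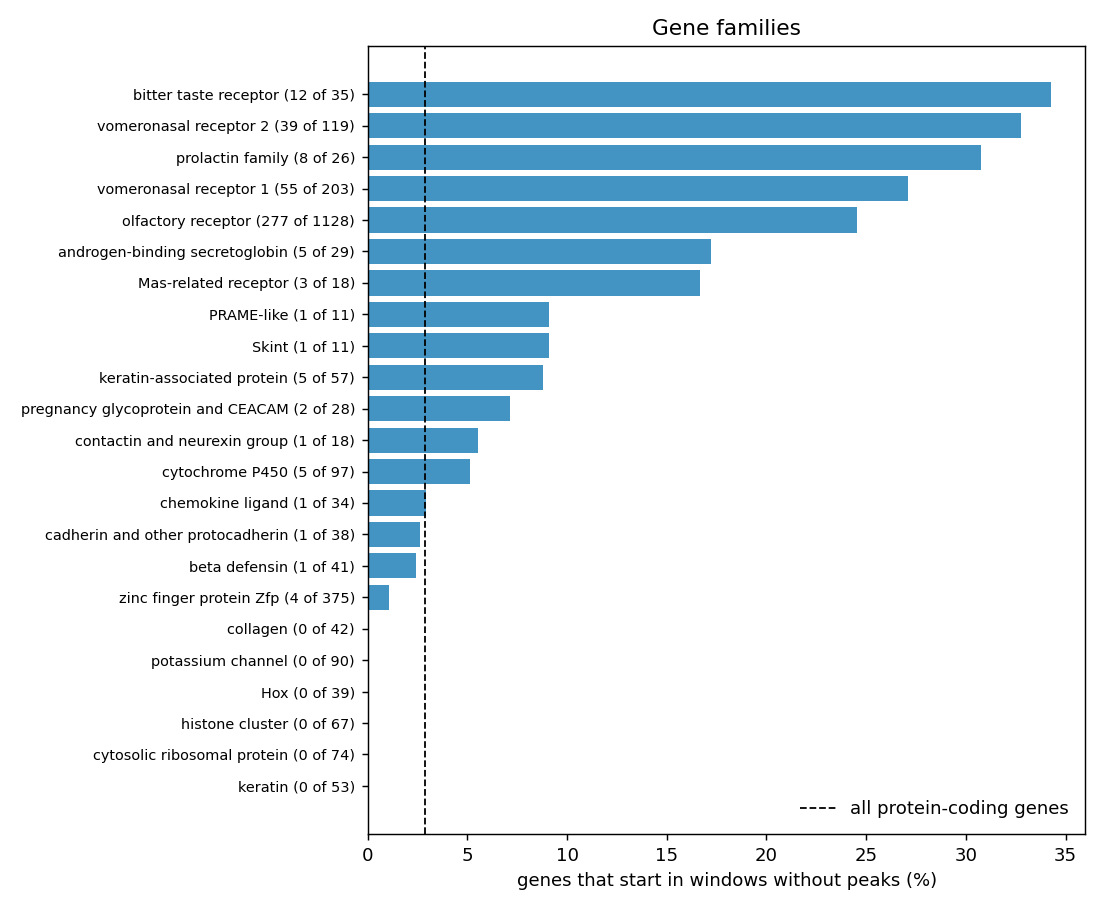
Share of the genes of each family that start in 250 kb windows without peaks (x axis, %), with counts in parentheses, for families of at least 10 genes with such a start and for some with none. The dashed line is the 2.86% of all protein-coding genes, and 4 of the 5 longest bars are sensory receptor families at 24.6% to 34.3%, the other being the prolactin family at 30.8%.

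The share of repeated sequence differed between families, without following the order of these counts. Windows with an olfactory receptor start had a median of 75.5% unique words, those with Vmn1r starts 61.4%, with Vmn2r starts 65.2%, with secretoglobin starts 35.8%, with prolactin family starts 72.1% and with bitter taste receptor starts 79.0%. Windows of alpha defensin starts had 13.2% and those of major urinary protein starts 29.8%, and 0 of 22 and 0 of 17 genes of these families started in windows without peaks. These genes lie in only 3 and 6 windows, so counts of 0 there say little about repeated sequence. Over all kept windows, 25.4% of the 138 with under 25% unique words lacked peaks, 16.6% of the 908 with 25% to 75% and 5.25% of the 8457 with at least 75%. In windows with at least 75% unique words, 117 protein-coding genes started without peaks, or 0.656% of the genes in such windows, and 73 of the 117 were sensory receptor genes. For olfactory receptor genes the share in those windows was 10.9%. The share of olfactory receptor genes was thus above that of all genes with and without the windows of repeated sequence. Both shares were lower without them. For olfactory receptor genes the share was 10.9% against 24.6%, and for all genes 0.656% against 2.86%, the latter falling by the larger factor.

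Receptor genes outside the 630 windows had few promoter peaks. A promoter peak is a peak within 1 kb of the annotated 5′ end of the gene, and 65.5% of all protein-coding genes in kept windows had one in either library. Of the 851 olfactory receptor genes that start elsewhere, 13, or 1.53%, had one. Over all sensory receptor families 18 of 1138 had one, or 1.58%, against 71.4% of the other genes that start elsewhere. Promoter peaks were thus rare in these families in windows that did hold peaks.

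Single receptor genes with promoter peaks do occur and show the contrast. Olfr433 on chromosome 1 had a promoter peak signal of 1.51 in replicate 1 and 1.98 in replicate 2, in a window with 5 and 7 peaks. Vmn1r4 on chromosome 6 had 4.70 and 3.54, in a window with 14 and 16 peaks, and its GENCODE start had a CpG ratio of 0.893 against a median of 0.105 for sensory receptor genes that start elsewhere. The RefSeq start of Vmn1r4 lies 32498 bases away, with a ratio of 0.139 over its 300 bases, so the peak may belong to another start than that of RefSeq. The RefSeq start of Olfr433 lies 1228 bases from the GENCODE start. Tas2r126 had no promoter peak in replicate 1 and a signal of 0.716 in replicate 2, and Prl7d1 had none in replicate 1 and 0.256 in replicate 2. Vmn2r1 had no promoter peak, nor had any of the 80 Vmn2r genes that start elsewhere. By comparison Olfr1170, Vmn1r160, Vmn2r69 and Tas2r110, in the middle of the longest runs of their families without peaks, had CpG ratios of 0.0979, 0.0878, 0.116 and 0.134 around the start.

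Olfactory receptor clusters differed from chromosome to chromosome. On chromosome 2, 138 of 294 olfactory receptor genes started in windows without peaks, on chromosome 19, 25 of 66, on chromosome 9, 36 of 132 and on chromosome 7, 49 of 244. On chromosome 10 none of 70 did, on chromosome 6 none of 28, and on chromosome 11, 3 of 82 did. The windows with olfactory receptor starts on chromosome 2 had a median GC content of 37.5% and a median of 1 peak over both lists, and those on chromosome 11 had 43.7% GC and 22 peaks. Chromosome 10 departed from this order, with 39.04% GC, a median of 3 peaks and none of its 9 windows without peaks. Unique words were alike on chromosomes 2, 11 and 10, at 72.5%, 75.2% and 72.8%. Chromosome 19 departed in the other direction. Its windows had 38.8% GC and a median of 18 peaks, yet 3 of 9 lacked peaks.

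The cluster on chromosome 2 gave the windows richest in genes. In chr2:87750001-88000000, 15 olfactory receptor genes from Olfr1141 to Olfr1158 started, and in chr2:111250001-111500000 another 15 from Olfr1276 to Olfr1291-ps1. Of the 10 windows without peaks with the most protein-coding starts, 6 were on chromosome 2. The others were chr7:103250001-103500000 with 12 olfactory receptor genes and the ubiquitin protease genes Usp17lc and Usp17ld, chr16:89000001-89250000 with 13 starts in the cluster of hair keratin-associated genes, chr13:23000001-23250000 with 12 Vmn1r starts and the bitter taste window on chromosome 6. Unique words in these 10 windows ranged from 57.9% to 77.5%.

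CpG around gene starts was low in windows without peaks. Over the 500 bases on either side of the start, the 586 genes had a median CpG observed over expected of 0.115, against 0.585 for the 19939 genes that start elsewhere. For sensory receptor genes the medians were 0.105 in windows without peaks and 0.105 elsewhere. For the 199 other genes in windows without peaks the median was 0.142, against 0.615 for the other genes elsewhere. A ratio of at least 0.6 was found in 9 of the 586, or 1.54%, and in 48.7% of the genes that start elsewhere.

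Of these 9 genes, 8 are described here. Nrg3, a neuregulin that signals in the nervous system, had a ratio of 0.923 in a window with 90.4% unique words, and Mdga2, which regulates synapse adhesion, had 0.725 in a window with 92.7%. Gm10801 on chromosome 2 had 0.628 at 79.0%. Another 5, Tmem254b, Tmem254c, Plac9b, Gm9780 and Gm3500 on chromosome 14, had ratios from 0.602 to 0.634 and started in windows with 0.0416% or 0.308% unique words.

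Other genes in windows with at least 75% unique words were picked from the list after their values were seen. Fshr, the receptor of follicle-stimulating hormone, had a ratio of 0.383, and Trhr, the receptor of thyrotropin-releasing hormone, 0.260. Slc4a10, a neuronal bicarbonate transporter, had 0.240, Cntn4, a neuronal contactin, 0.543, and Fcer1a, the IgE receptor subunit of mast cells, 0.0964. By the choice of windows none of them could have a peak at its start within the window.

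Of 109 genes on 12 lists of tissue markers 1 started in a window without peaks, against 2.86% of all protein-coding genes. It was Cyp3a11, a drug-oxidising enzyme of hepatocytes, in chr5:145750001-146000000, with 55.9% unique words. Urothelial markers of the labelled tissue lay in windows with many peaks. All 14 urothelial genes started in windows with at least 16 peaks over both lists, with a median of 51, and the number with a peak at the promoter was 13 in replicate 1 and 12 in replicate 2. Smooth muscle had 9 and 5 of 10 and fibroblasts 7 and 7 of 7, while over all protein-coding genes in kept windows the shares were 62.1% and 64.4%. The smooth muscle list was thus below the share of all genes in replicate 2. Cardiac and skeletal muscle genes had 4 and 4 of 9 and central neuron genes 3 and 5 of 9. B cell genes had 0 and 0 of 7 and T cell genes 0 and 1 of 8, and none of them started in a window without peaks. With 2.86% of all protein-coding genes starting in such windows, lists of this size say little about single cell types.

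Protein-coding gene bodies covered 14.3% of the bases of the 630 windows and 43.3% of those of the others. In 42 runs, with 49 windows in all, the whole run lay inside a single gene body, and 41 genes held such runs. A gene must be long to hold a whole window, so their length follows from how they were counted. The genes named next are among the 10 with the most bases in such windows. Lrp1b, a giant receptor of the LDL receptor family, had 1000 of its 2058 kb in windows without peaks, and its remaining part held 6 peaks in replicate 1 and 7 in replicate 2. Cntnap2 and Cntnap5a, neurexin-like adhesion genes, Cadm2 and Nkain2, a sodium pump partner, had 500 kb each. Dcc, the netrin receptor of growing axons, had 496 kb, Tmem132d 468 kb, Csmd3 419 kb and Csmd1 357 kb.

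The promoters of these long genes were not uniformly closed, and none of those named started in a window without peaks. Cadm2 had a promoter peak signal of 3.57 in replicate 1 and 3.92 in replicate 2, Csmd3 0.767 and 1.21, Nkain2 0.861 and 1.57, and Cntnap5a 0.460 and 0.680. Cntnap2 had 0.265 in replicate 2 only. Lrp1b, Dcc, Tmem132d and Csmd1 had no promoter peak in either. Tmem132d held no peak anywhere in its 651 kb in either library, though only 468 kb lay in windows without peaks.

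Among other gene types, pseudogenes that arise by duplication were frequent. Of unprocessed pseudogenes, 273 of 1718 started in windows without peaks, or 15.9%, and of processed pseudogenes, which come from copied RNA, 567 of 8807, or 6.44%. The latter share is close to the 6.63% of windows. Long intergenic noncoding RNA genes stood lower with 117 of 5160, or 2.27%, and antisense RNA genes lower still with 17 of 2890, or 0.588%. In 130 of the 630 windows, or 20.6%, no gene of any type started, against 7.21% of the others.

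Immunoglobulin light chain and heavy chain genes, which are rearranged in B cells, differed in how they fell. Of 100 kappa variable genes (Igkv) on chromosome 6, 33 started in windows without peaks, in 4 of the 13 windows of that locus, whose median share of unique words was 50.7%. Of 113 heavy chain variable genes (Ighv), 0 did, and the 11 windows of that locus had a median of 3 peaks over both lists. None of 144 T cell receptor variable genes started in such a window.

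Of 1390 small nucleolar RNA genes, which guide modification of other RNAs, 131 started in windows without peaks, or 9.42%, and 76 of these lay in 1 window, chr7:59250001-59500000. It overlaps the imprinted locus of Ube3a and Snhg14, a long host RNA that RefSeq places at chr7:59272737-60450177 and that is known for its activity in neurons. That window had 40.3% GC and 46.5% unique words. Of 2030 microRNA genes, 60 started in windows without peaks, or 2.96%, close to the 2.86% of protein-coding genes. Of these, 12 carry a Mir symbol, in 5 windows. Mature sequences of 11 of the 12 were found in RefSeq on GRCm38.p6. They are shown because most of the largest group share a seed, bases 2 to 8, which is in capitals.
mmu-miR-344d-3p: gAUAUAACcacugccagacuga
mmu-miR-344e-3p: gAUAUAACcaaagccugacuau
mmu-miR-344h-3p: gGUAUAACcaaagcccgacugu
mmu-miR-873a-5p: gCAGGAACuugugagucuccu
mmu-miR-876-5p: uGGAUUUCucugugaaucacua
The 6 Mir344 genes lay in chr7:61500001-61750000, at 37.9% GC and 81.1% unique words. Those of the d and e kinds share the seed AUAUAAC of the 3p arm, and those of the h kind have GUAUAAC. Mir873a, Mir873b and Mir876 lay in chr4:36500001-36750000, at 36.2% GC and 89.8% unique words, within the neuronal gene Lingo2. Neither window held a protein-coding gene start.

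Windows without peaks came in runs. The 630 formed 475 runs, of which 368 were single windows, 76 held 2, 17 held 3, 11 held 4 and 3 held 5, so that 41.6% of the windows had a neighbour of the same kind. The actual stretch between the nearest peaks on either side had a median of 477 kb and exceeded 1000 kb for 26 runs. The longest was 1566 kb around chr13:86500001-87750000. This run held no protein-coding start, lay between Cox7c, 453 kb away, and Edil3, 1071 kb away, and had 37.04% GC, 55.9% masked bases and 72.9% unique words.

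The other long runs were of different kinds. The run at chr5:79250001-80500000, at 36.2% GC and 81.5% unique words, held no protein-coding start either and lay 1842 kb from Igfbp7 and 520 kb from Adgrl3. The run at chr5:94250001-95500000 held 15 protein-coding starts, all of gene models or uncharacterised genes, and only 5.17% of its words were unique. The run at chr2:40750001-41750000 lay wholly inside Lrp1b at 85.8% unique words. The run at chr2:87750001-88750000 held 46 olfactory receptor starts at 36.5% GC and 70.5% unique words. The 5 runs thus covered stretches without protein-coding starts, repeated gene models, the inside of a long gene and a receptor cluster.

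Surroundings changed gradually. The 836 other windows directly beside a window without peaks had a median of 2 peaks over both lists and 37.7% GC, against 19 peaks and 42.3% GC for the 8037 that were not beside one. Of the neighbours, 79.9% had under 6 peaks, against 19.7% of the rest. At a distance of 1000 kb from the nearest window without peaks, the 430 windows found there had a median of 13 peaks and 40.3% GC, and at 2000 kb the 307 windows had 18 peaks and 42.1% GC.

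**Figure D5:**
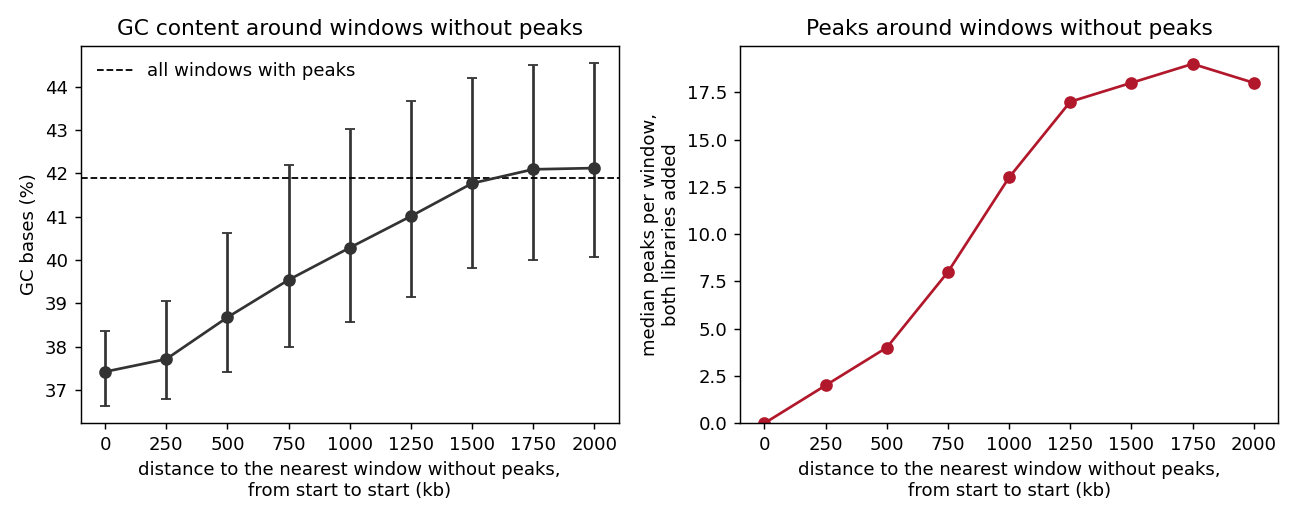
Kept 250 kb windows by distance to the nearest window without peaks on the same chromosome (x axis, kb, 0 being the windows without peaks themselves). The left plot gives median GC content with quartiles as bars and a dashed line at the 41.9% of all windows with peaks, and the right plot gives the median number of peaks of both libraries added, which rises from 2 at 250 kb to 13 at 1000 kb and 18 at 2000 kb.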

How the data were processed

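DNase-seq libraries of 2 bladder samples were used. Per the deposited file listing the files are on mm10; which aligner and which peak caller the authors ran is not given in the sources used here. Peak signal values are the deposited signal, whose scale is not stated, and the deposited FDR of cut-rate stretches is on the p-value scale; total depth is unknown. Lists were made per library by the authors. The longer list of each library was used.

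Windows of 250 kb, their base content, masked bases and 32-base words found once in the genome were computed from the RefSeq GRCm38.p6 assembly, the same assembly as mm10, with Python 3.11.15, numpy 2.4.6, pandas 2.3.3, numba 0.67.0 and pysam 0.24.0, checked on simulated data. Partial last windows of each chromosome were not used. Genes came from GENCODE M21, placed by the annotated 5′ end, and the sequences at gene starts and the microRNAs from RefSeq. Overlap of at least 1 base counted.

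Members, gene lists and families were chosen with earlier results of these data known. Genes named were, by rule, those nearest the middle of the longest run per family with at least 3 such starts, 1 contrast gene in each of the 5 families with the most, the 10 with the most bases in these windows, the 10 with the most CpG-rich starts outside families, and tissue markers in these windows. A few genes meeting the rule are left unreported. Windows named were the 5 longest runs (ties in genome order), the 10 richest in starts and the 3 highest and 3 lowest in GC. No p-value was computed, since there is 1 group. Alternatives covered the peak list, each library alone, equal numbers of peaks, window size and grid, N bases, unique words, the FDR stretches and gene placement.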

Additional observations from a re-analysis of the deposited data

How the results depend on the processing

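The number of windows without peaks depends on how many peaks are called. It was 630 with both longer lists, 893 to 1405 when either library alone decided, 1743 with the shorter lists, 1293 with the 84591 strongest peaks of each library and 299 when no stretch with an FDR under 0.05 was allowed. With windows of 100 kb it was 4505 of 23868 and with 500 kb it was 81 of 4754.

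The difference in median GC content, -4.46 percentage points, ranged from -4.61 to -4.57 for either library alone. It was -4.91 with the shorter lists, -4.64 at equal numbers, -4.55 on a grid of windows with another starting base, -4.39 at 100 kb, -4.75 at 500 kb, -5.16 with at least 75% unique words and -4.35 without FDR stretches. The difference in median CpG observed over expected, -0.0443, ranged from -0.0483 to -0.0461 for either library alone and was -0.0511, -0.0482, -0.0474, -0.0412, -0.0519 and -0.0404 under the same alternatives, the grid left out. Neither changed sign under any of these.

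The share of protein-coding genes, 2.86%, was 3.96% to 5.43% for either library alone, 6.74% with the shorter lists, 4.79% at equal numbers, 7.18% at 100 kb, 0.820% at 500 kb and 0.656% with at least 75% unique words. The share of olfactory receptor genes, 24.6%, was 31.7% to 40.9%, 47.6%, 36.97%, 52.3%, 7.18% and 10.9% in the same order, above that of all genes each time. Larger windows and the demand for unique words leave fewer windows by construction, and forbidding FDR stretches can only remove empty ones. Leaving out a library or the weaker peaks can only add empty windows, and with them gene starts. Beyond these directions, the cause of the shifts was not tested. No paired analysis was possible because there is 1 group. Depth is unknown, so a site below the calling threshold cannot be told apart from a closed one.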
